A study of Homo sapiens with 12 samples.

Results

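The genes described here are 9 genes of telomere protection and maintenance, taken by their symbols (TERF1, TERF2, POT1, TINF2, ACD, TERF2IP, TERT, DKC1 and CTC1) from a deposited expression table of 25365 gene names. All 9 were in the table once, and all 9 passed the filter on low values. The table holds RNA-seq of A549 cells, an epithelial line from a human lung adenocarcinoma. Wild-type (WT) cells and cells lacking PARP3 (PARP3-/-) were kept for 24 h in 1 μM pyridostatin or in its vehicle, DMSO, and the 12 libraries are 3 biological replicates of each of these 4 groups. PARP3 is a poly(ADP-ribose) polymerase of DNA repair. The PARP3-/- cells were made with Cas9 by a deletion in the first exon of PARP3. As the study describes them, they carry a chromosomal rearrangement reporter with sequence of the AAVS1 locus. For its knockout cells the study names cloning by serial dilution, or isolation of colonies. Which clone was sequenced is not given in the sources used here. Pyridostatin is a small molecule that stabilizes G-quadruplex (G4) DNA, a stacked structure of guanine-rich single strands.

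Telomeres end in long arrays of the repeat TTAGGG, whose guanine-rich strand can fold into G4 DNA. The shelterin complex coats the array. TERF1 and TERF2 bind its double-stranded part, POT1 binds the single-stranded overhang, TINF2 bridges these proteins, ACD (TPP1) joins POT1 to TINF2 and recruits telomerase, and TERF2IP (RAP1) rides on TERF2. Telomerase adds repeats through its reverse transcriptase TERT, with dyskerin (DKC1) stabilizing its RNA, and CTC1 is the large subunit of the CST complex, which limits telomerase and helps fill in the complementary strand. Cancer lines such as A549 keep their telomeres with telomerase.

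Levels are in FPKM, that is, fragments relative to transcript length and to the mapped reads of the library, and limma tested the differences of log2(FPKM + 1) in a single fit of all 4 groups. A gene is said to rise, fall or be called where its Benjamini-Hochberg adjusted p over the 11881 genes tested was under 0.05. For genes of low FPKM, such as TERT, this scale makes a change look smaller than it is. Depth estimated from low values was about 21700000 to 30700000 reads per library, which put TERT at about 105 to 168 reads and every other member at 520 or more. One library, WT vehicle replicate 2, stood apart: its FPKM summed to 563473, while the other libraries summed to 492839 to 525124. All 5 epithelial markers were present and together summed to 5150 to 6806 FPKM, while the 4 blood markers summed to at most 2.61 and the 3 endothelial markers to at most 0.375. The PARP3 transcript was not lower in the libraries labelled PARP3-/-. Its mean was 4.41 FPKM there against 3.73 in WT with vehicle, and 4.58 against 3.79 with pyridostatin (exact two-sided permutation test, n = 3 against 3, p = 0.1 each, the smallest p this design allows). Over both treatments limma called PARP3 higher in the libraries labelled PARP3-/- (log2 fold change 0.21, adjusted p = 0.0154). The level of the whole gene does not read a deletion within an exon, so it did not check the genotype.

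Promoter sequences from RefSeq (GRCh38.p14, 250 bases before the start of the gene to 50 after it) were found for 6 members, and 3 of them held a G4 motif, here 4 runs of at least 3 G with loops of 1 to 7 bases, searched on both strands. The same motif was in 27.9% of the 27305 genes with such a sequence. These 3 promoters are shown because pyridostatin binds G4 DNA. They are written 5′ to 3′ on the strand of the gene with the motifs in capitals, and capital C runs are motifs on the other strand. Positions are counted from the start base as 0.
TERT promoter, chr5:1295019-1295318, minus strand: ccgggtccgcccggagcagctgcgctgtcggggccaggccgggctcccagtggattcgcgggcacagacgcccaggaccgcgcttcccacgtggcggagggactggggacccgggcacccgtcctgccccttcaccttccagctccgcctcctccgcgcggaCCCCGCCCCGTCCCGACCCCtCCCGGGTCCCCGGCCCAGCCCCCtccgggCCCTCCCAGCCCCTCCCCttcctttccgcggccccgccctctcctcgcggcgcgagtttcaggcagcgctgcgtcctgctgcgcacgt
ACD promoter, chr16:67660211-67660510, minus strand: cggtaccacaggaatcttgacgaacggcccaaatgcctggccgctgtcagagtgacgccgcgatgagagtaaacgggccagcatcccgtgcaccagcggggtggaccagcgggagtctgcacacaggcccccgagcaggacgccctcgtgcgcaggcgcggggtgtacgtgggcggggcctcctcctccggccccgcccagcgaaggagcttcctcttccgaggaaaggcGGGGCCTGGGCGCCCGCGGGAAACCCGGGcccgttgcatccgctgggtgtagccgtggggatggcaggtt
DKC1 promoter, chrX:154762614-154762913, plus strand: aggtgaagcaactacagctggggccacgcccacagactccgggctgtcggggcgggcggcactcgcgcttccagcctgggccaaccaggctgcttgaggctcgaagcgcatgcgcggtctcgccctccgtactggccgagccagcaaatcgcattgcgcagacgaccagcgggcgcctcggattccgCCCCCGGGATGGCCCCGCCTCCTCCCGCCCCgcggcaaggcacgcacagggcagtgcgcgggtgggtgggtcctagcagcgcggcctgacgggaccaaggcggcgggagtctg

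The TERT promoter held 3 motifs, all on the other strand, from -88 to -69, -67 to -45 and -38 to -21. It was also the richest in G and C among the 6, at 77.3%, beside a median of 58.7% over all promoters. ACD held 1 motif on the strand of the gene, from -20 to 8, and DKC1 held 1 on the other strand, from -63 to -33. The sequences of POT1, TINF2 and TERF2IP had no match to the motif in this window. TERF1, TERF2 and CTC1 had no promoter sequence here and were not searched. The telomere repeat TTAGGG was in none of the 6 on either strand (10.9% of all genes), and CACGTG, the E-box bound by MYC, was in TERT alone, from -163 to -158 (8.77% of all genes). A match describes the letters and is not evidence of a folded structure.

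Per length, the 9 transcripts spanned a wide range of levels, and their order was nearly fixed. TERT was lowest in every group, with group means of 1.11 to 1.67 FPKM, followed by CTC1 at 4.67 to 5.10 and POT1 at 7.02 to 7.42. DKC1, which also serves the ribosomal RNA modification particles, was highest by far at 81.7 to 89.7 FPKM. In the vehicle groups the ranges of TERF2 (means 11.3 and 12.1) and ACD (12.1 and 12.9) overlapped, as did those of TERF2IP (20.6 and 20.3) and TINF2 (21.1 and 20.9), and TERF1 (15.5 in both) lay between these pairs. With pyridostatin both pairs came apart: TERF2 (14.2 and 14.1) lay above ACD (10.3 and 11.7), and TERF2IP (22.4 and 22.2) above TINF2 (18.9 and 18.5), without overlap in either genotype. TERF2 then also reached the range of TERF1 in the libraries labelled PARP3-/-.

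**Figure D1:**
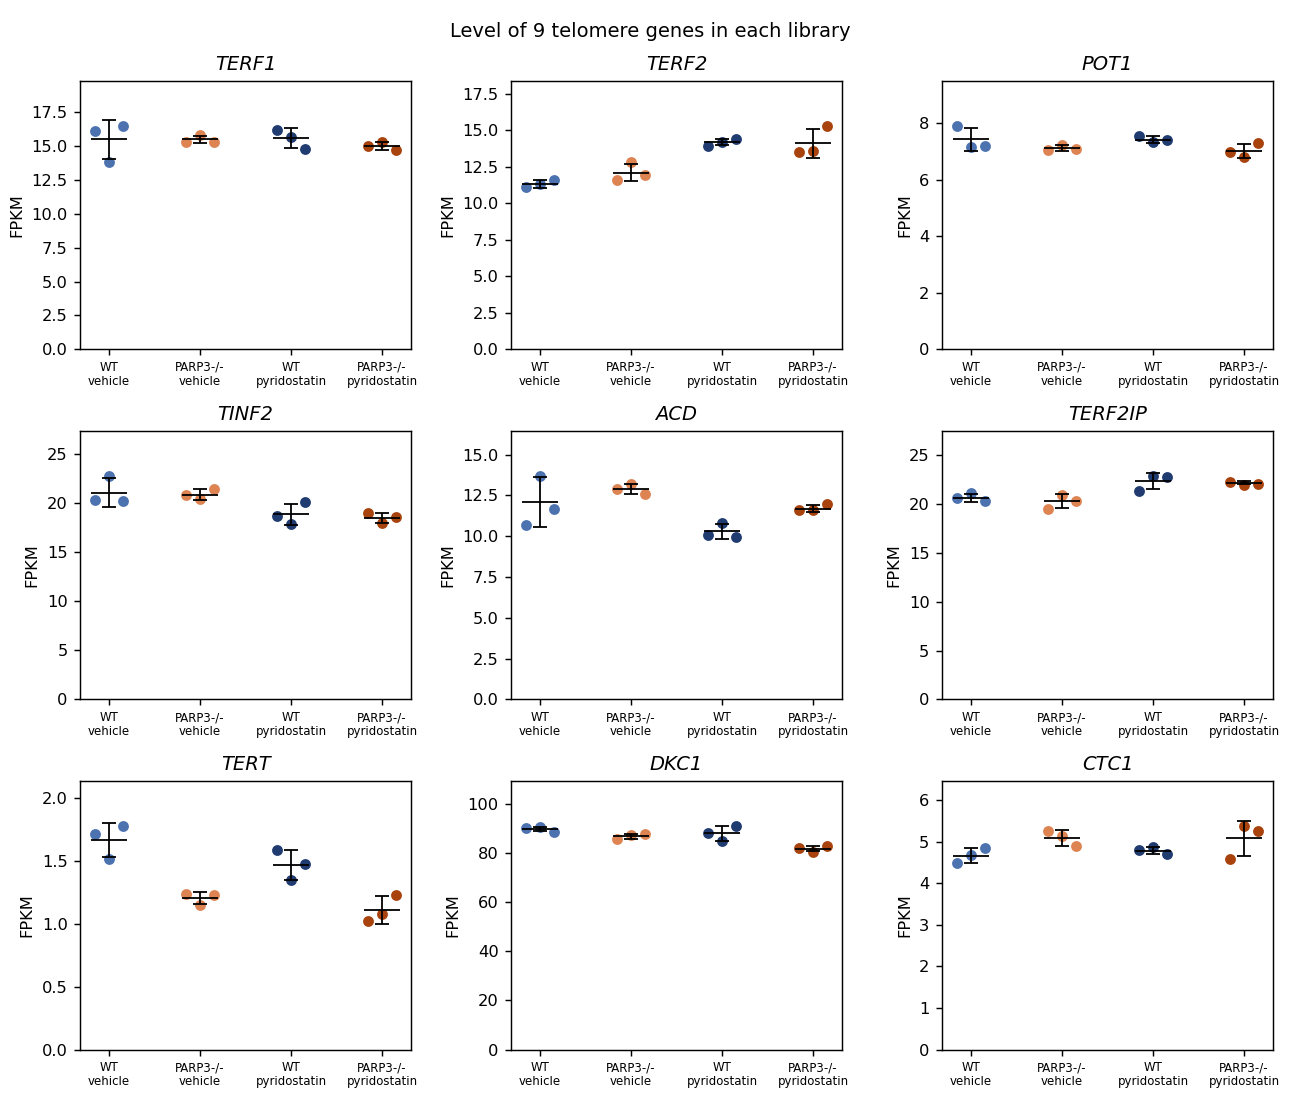
FPKM of the 9 genes (y axis, from 0, own scale per panel) in each of the 12 libraries, grouped by genotype and treatment on the x axis, with the mean and SD of 3 libraries in black. TERF2 lay higher with pyridostatin (13.5 to 15.3) than with vehicle (11.1 to 12.8), and TERT lower in the libraries labelled PARP3-/- (1.02 to 1.24) than in WT (1.35 to 1.78).

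Pyridostatin against vehicle asks whether a G4 ligand was accompanied by altered transcript levels of the proteins that sit on G4-forming telomeric DNA. TERF2 was the member that moved most: it rose in both genotypes, and it was the only member called in each. Over both genotypes together, TERF2 and its partner TERF2IP rose, while TINF2 and ACD, which link the complex together, fell. TERF1, POT1 and CTC1 stayed within 0.04 of 0 on the log2 scale in every pyridostatin comparison. Of the 9 members, 1 was called in WT (4.17% of all genes tested were), 1 in the libraries labelled PARP3-/- (5.56% of all genes) and 4 over the mean of both genotypes (13.9% of all genes), all 4 of them shelterin genes. None was also past an absolute log2 fold change of 1 in WT or in PARP3-/- libraries, as 0.0505% and 0.0673% of all genes were.

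TERF2 protects chromosome ends from being joined and from the ATM damage signal. In WT it stood at 11.1, 11.3 and 11.6 FPKM with vehicle and at 13.9, 14.2 and 14.4 with pyridostatin. In the libraries labelled PARP3-/- it stood at 11.6, 12.8 and 11.9 with vehicle and at 13.5, 13.6 and 15.3 with pyridostatin. All 6 pyridostatin libraries thus lay above all 6 vehicle libraries. Mean FPKM was 24.9% higher in WT (log2 fold change 0.30, SE 0.0505, limma adjusted p = 0.00928) and 16.9% higher in PARP3-/- (0.21, SE 0.0505, adjusted p = 0.0399). Over both genotypes the rise was 20.8% (log2 fold change 0.25, 95% interval 0.17 to 0.33, limma adjusted p = 0.00130), and it was called under all 19 alternatives tried. The call in PARP3-/- alone was weaker and was kept in 7 of 20 alternatives: it was lost (adjusted p 0.0511 to 0.136) on leaving out any 1 library other than WT vehicle replicate 2, PARP3-/- vehicle replicate 2 or PARP3-/- pyridostatin replicate 1. It was also lost with no filter (0.0708), quantile normalization (0.0528), a common median (0.0513) and only the libraries compared (0.0894). The WT call was lost only when the 6 libraries of that comparison were fitted alone (adjusted p = 0.0553).

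TERF2IP modulates what TERF2 does at the chromosome end. Its levels in WT were 20.6, 21.1 and 20.3 FPKM with vehicle and 21.4, 22.9 and 22.8 with pyridostatin. In PARP3-/- libraries they were 19.5, 20.9 and 20.3 with vehicle and 22.3, 22.0 and 22.1 with pyridostatin. The 6 pyridostatin libraries again lay above the 6 vehicle libraries, by a smaller margin. The rise over both genotypes was 8.91% in mean FPKM (log2 fold change 0.12, 95% interval 0.06 to 0.18, limma adjusted p = 0.0148), and shifting each library to a common median took the adjusted p to 0.0626. Within WT (0.11, adjusted p = 0.130) and PARP3-/- (0.12, adjusted p = 0.0878) limma called no difference. One pseudogene carries the name of TERF2IP and 7 that of TERF1, and how reads shared with such copies were assigned is not given in the sources used here.

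TINF2, the central bridge of shelterin, went the other way. It stood at 20.3, 22.8 and 20.2 FPKM with vehicle and 18.7, 17.9 and 20.1 with pyridostatin in WT. In PARP3-/- libraries it stood at 20.8, 20.4 and 21.5 with vehicle and 19.0, 18.0 and 18.6 with pyridostatin. Every pyridostatin library lay below every vehicle library, although the highest of the first (20.1) and the lowest of the second (20.2) nearly met. TINF2 fell by 10.9% over both genotypes (log2 fold change -0.16, 95% interval -0.24 to -0.07, limma adjusted p = 0.0201). The call over both genotypes was lost without PARP3-/- vehicle replicate 3 (adjusted p = 0.0531), WT pyridostatin replicate 1 (0.0523) or PARP3-/- pyridostatin replicate 2 (0.0553).

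ACD fell by 11.9% over both genotypes (log2 fold change -0.17, 95% interval -0.28 to -0.06, limma adjusted p = 0.0486), the least firm of the 4 calls. With vehicle it was 10.7, 13.7 and 11.7 FPKM in WT and 12.9, 13.2 and 12.6 in PARP3-/-, and with pyridostatin 10.1, 10.8 and 9.93 in WT and 11.6, 11.6 and 12 in PARP3-/-. The WT groups overlapped, at 10.7 and 10.8, and the PARP3-/- groups did not. Leaving out any 1 library other than WT vehicle replicates 1 and 2 took the adjusted p to 0.0539 to 0.107. The call was kept in 7 of 19 alternatives, and it was also lost with no filter (limma adjusted p = 0.116) and no trend (0.0530). Without WT vehicle replicate 1, ACD was called within WT (-0.28, limma adjusted p = 0.0444). ACD overlaps CARMIL2 in the annotation (listed as RLTPR, 0.215 to 0.369 FPKM), and whether the strand was used in counting is not given in the sources used here.

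**Figure D2:**
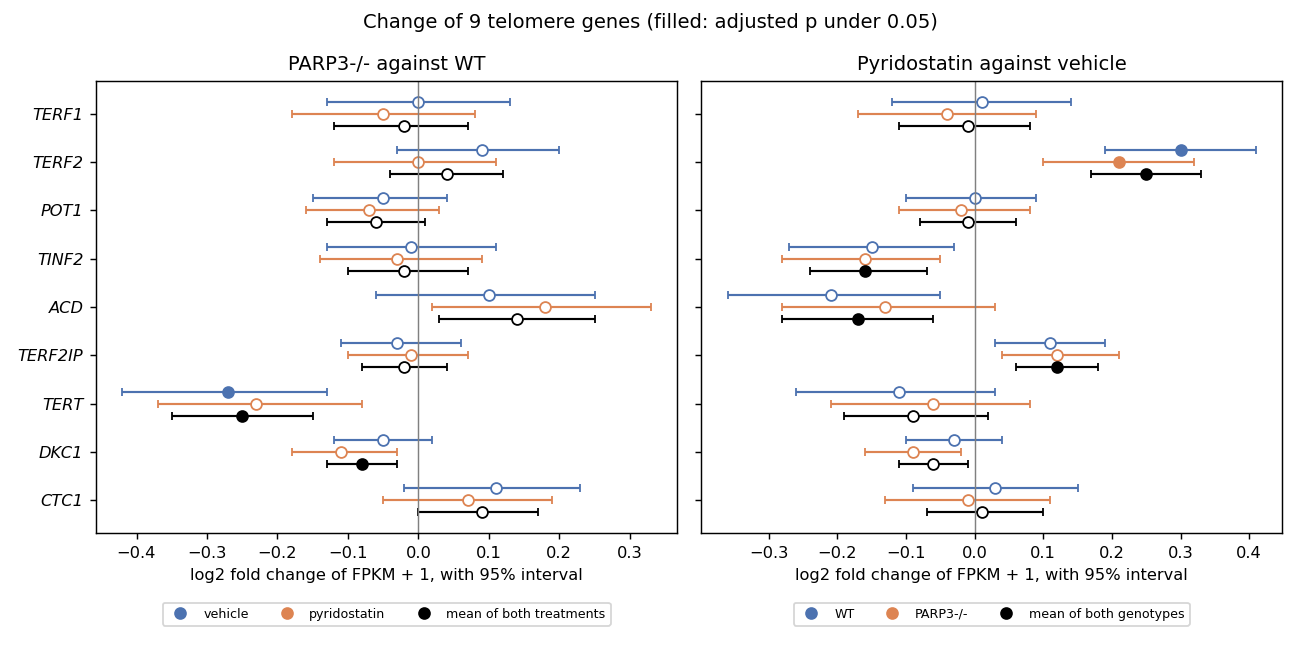
Log2 fold change of FPKM + 1 (x axis) with its 95% interval for each gene (y axis), PARP3-/- against WT on the left and pyridostatin against vehicle on the right, filled where the limma adjusted p was under 0.05. TERF2 (0.25) and TERF2IP (0.12) lie right of 0 with pyridostatin and TINF2 (-0.16) and ACD (-0.17) left of it, and TERT (-0.25) lies left of 0 for genotype.

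The other members were called in none of these comparisons. TERF1 was 13.8 to 16.5 FPKM in all 12 libraries (log2 fold change -0.01 over both genotypes, 95% interval -0.11 to 0.08) and POT1 6.78 to 7.90 (-0.01, -0.08 to 0.06). CTC1 was 4.48 to 5.38 FPKM (0.01, -0.07 to 0.10). DKC1 (-0.06, limma adjusted p = 0.120) and TERT (-0.09, limma adjusted p = 0.245) were lower with pyridostatin without passing the test, and in PARP3-/- libraries the 3 DKC1 values with pyridostatin (81.8, 80.5 and 82.8) lay below the 3 with vehicle (85.6, 87.2 and 87.6).

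Summed over the 6 shelterin genes, the level differed between groups by less than its spread between replicates, while its composition shifted with pyridostatin. The sum was 88.0 ± 1.64 FPKM (SD, n = 3) in WT and 88.7 ± 1.57 in PARP3-/- with vehicle, and 88.7 ± 0.729 and 88.6 ± 1.33 with pyridostatin. The share of TERF2 in that sum was 12.9% ± 0.389 and 13.6% ± 0.440 with vehicle and 16.0% ± 0.106 and 16.0% ± 0.903 with pyridostatin. The share of TERF2IP went from 23.4% and 22.8% to 25.2% and 25.0%, while that of TINF2 went from 23.9% and 23.5% to 21.3% and 20.9% and that of ACD from 13.7% and 14.5% to 11.6% and 13.3%. TERF1 (16.9% to 17.6%) and POT1 (7.92% to 8.44%) kept their group means within a narrow range. Shares add to a whole, so these values restate the levels above and are not further tests.

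**Figure D3:**
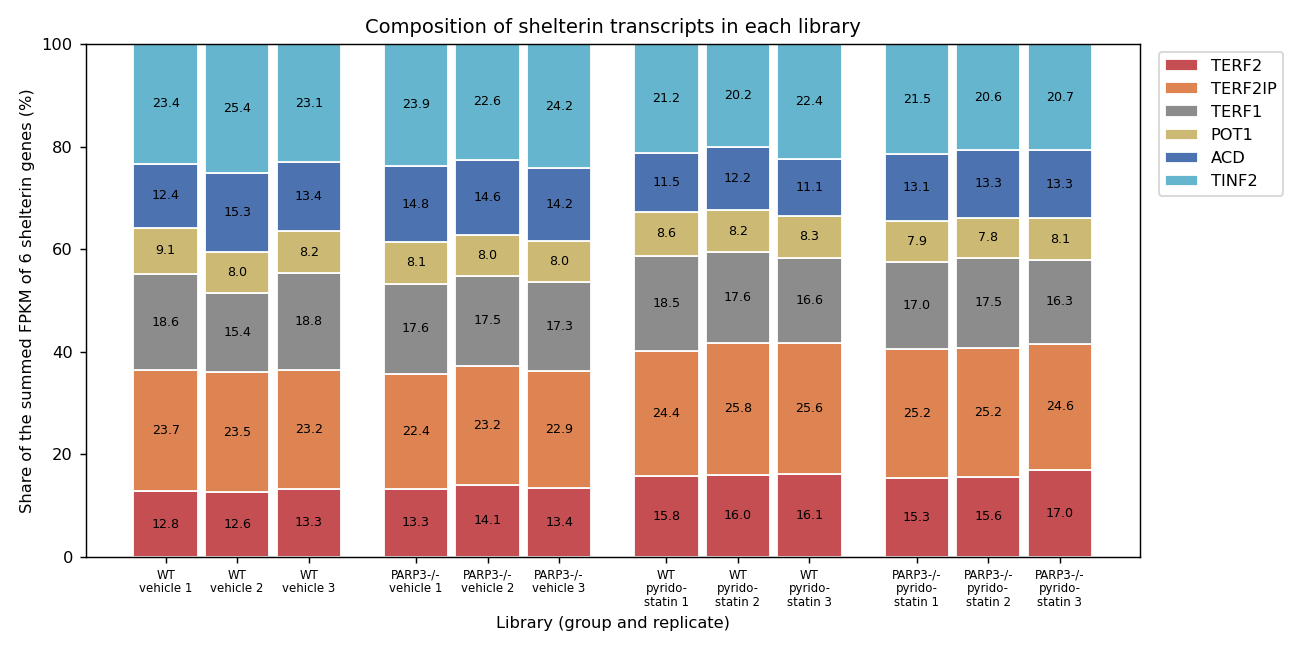
Share of each shelterin gene in the summed FPKM of the 6 genes (y axis, percent) in each of the 12 libraries (x axis). The TERF2 segment is 12.6% to 14.1% in the vehicle libraries and 15.3% to 17.0% in the pyridostatin libraries.

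PARP3-/- against WT asks whether loss of PARP3 was accompanied by altered telomere gene expression. Which clone was sequenced is not given, so loss of PARP3 cannot be told apart from a difference between clones or from the reporter. Whether the p-values of this comparison cover the spread between clones is therefore not known. TERT, the limiting catalytic subunit of telomerase, was the member that differed most, and it was lower in the libraries labelled PARP3-/-. No shelterin gene and not CTC1 was called. Of the 9 members 1 was called with vehicle (9.41% of all genes tested), 0 with pyridostatin (10.9%) and 2 over the mean of both treatments, TERT and DKC1 (19.1%), so the members were called about as often as all genes. None was past an absolute log2 fold change of 1 with vehicle or with pyridostatin, as 0.362% and 0.396% of all genes were.

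TERT stood at 1.72, 1.52 and 1.78 FPKM in WT and at 1.24, 1.15 and 1.23 in PARP3-/- with vehicle. With pyridostatin it stood at 1.59, 1.35 and 1.48 in WT and at 1.02, 1.08 and 1.23 in PARP3-/-. All 6 libraries labelled PARP3-/- lay below all 6 WT libraries. With vehicle TERT fell by 27.8% in mean FPKM (log2 fold change -0.27, SE 0.0663, limma adjusted p = 0.0252), and with pyridostatin the ratio of the means was 0.756 and just missed the threshold (-0.23, SE 0.0663, limma adjusted p = 0.0535). Over both treatments TERT fell by 26.2% (-0.25, 95% interval -0.35 to -0.15, limma adjusted p = 0.00338), a call kept in all 18 alternatives that could test it. With a pseudocount of 0.1 the log2 fold change was as large as -0.41.

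The vehicle call alone was lost without WT vehicle replicates 1 or 3 (limma adjusted p = 0.0687 and 0.0838) or PARP3-/- vehicle replicates 2 or 3 (0.0876 and 0.0648), and with only the 6 vehicle libraries (0.0530). Without WT vehicle replicate 2 or WT pyridostatin replicate 2, TERT was called with pyridostatin as well (0.0216 and 0.0445). The same held with no filter (0.0498), quantile normalization (0.0275), a common median (0.0288) and no trend (0.0241). At about 105 reads in the shallowest case, counting error alone gave TERT a coefficient of variation of 9.8%, against 4.4% or less for the other members. In bulk RNA, less TERT per cell and fewer TERT-expressing cells cannot be told apart. Markers of other cell types also moved with genotype: the sum of 5 fibroblast markers was 0.637 to 1.05 FPKM in WT, and 1.50 to 2.03 where the label was PARP3-/-, mostly COL1A1, with COL1A2 and DCN at 0 in most libraries. The endothelial sum was 0.116 to 0.213 FPKM in WT and 0.245 to 0.375 in PARP3-/-, nearly all of it CDH5. PECAM1 went the other way, with means of 0.0201 FPKM in WT and 0.00324 in PARP3-/- with vehicle, and 0.0105 and 0 with pyridostatin. VWF was at most 0.00873 FPKM. The epithelial sum, carried by KRT8 and KRT18, was 5714 to 6806 FPKM in WT and 5150 to 5882 in PARP3-/-, and its members went both ways: with vehicle KRT19 had a mean of 90.5 FPKM in WT and 163 in PARP3-/-, EPCAM 2.12 and 1.16, and CDH1 14 and 10.2. Their part in the result was not tested.

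DKC1 was slightly lower in the libraries labelled PARP3-/-. It stood at 90.0, 90.5 and 88.6 FPKM in WT and 85.6, 87.2 and 87.6 in PARP3-/- with vehicle, and at 87.9, 85.0 and 90.9 against 81.8, 80.5 and 82.8 with pyridostatin. The groups did not overlap within either treatment, but the WT pyridostatin libraries reached down into the PARP3-/- vehicle range. DKC1 fell by 5.18% over both treatments (log2 fold change -0.08, 95% interval -0.13 to -0.03, limma adjusted p = 0.0394). This call was kept in 5 of 19 alternatives and was lost (adjusted p 0.0540 to 0.0943) on leaving out any 1 library other than WT vehicle replicate 2 or WT pyridostatin replicate 2, and with the replicate number as a block (0.0547). It was also lost under quantile normalization (-0.06, limma adjusted p = 0.157), no trend (0.0573) and a filter at 5 FPKM (0.0514). DKC1 hosts the small RNAs SNORA36A, SNORA56 and MIR664B in its introns.

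ACD was the shelterin gene nearest to a call, and its calls depended on which libraries were fitted. Its mean was 12.1 FPKM in WT and 12.9 in PARP3-/- with vehicle and 10.3 and 11.7 with pyridostatin, where the groups did not overlap (log2 fold change 0.18, limma adjusted p = 0.149). With only the 6 pyridostatin libraries in the fit, limma called it there (0.18, adjusted p = 0.0407). Over both treatments the difference was 0.14 (adjusted p = 0.0832). Without WT vehicle replicate 2, which had the highest ACD value of all (13.7), limma called ACD higher in PARP3-/- with vehicle (0.19, adjusted p = 0.0269), with pyridostatin (0.18, adjusted p = 0.0162) and over both (0.18, adjusted p = 0.00222). The remaining members TERF1 (-0.02), TERF2 (0.04), POT1 (-0.06), TINF2 (-0.02), TERF2IP (-0.02) and CTC1 (0.09) were uncalled on the mean of both treatments, with 95% intervals inside -0.13 to 0.17. Without PARP3-/- pyridostatin replicate 1 CTC1 was called (0.12, limma adjusted p = 0.0384), and POT1 was called under quantile normalization (-0.09, adjusted p = 0.0374) and a common median (-0.09, adjusted p = 0.0476). CTC1 overlaps PFAS in the annotation (22.7 to 26.1 FPKM).

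Whether the response to pyridostatin differed between the genotypes was tested as an interaction. limma called 0 of the 9 members and 0% of all genes, and at an unadjusted p under 0.05 there were 0 members and 521 of the 11881 genes. For TERF2 the difference between the responses was -0.09 on the log2 scale (95% interval -0.25 to 0.07), and for TERT it was 0.05 (-0.16 to 0.25). The widest interval was that of ACD (0.08, -0.14 to 0.30). These intervals leave room for differences as large as the responses themselves. The genotype comparison with vehicle and the pyridostatin comparison in WT share the WT vehicle libraries.

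A wider list of 30 telomere genes (12 of the telomerase particle and its assembly, 6 of the CST partners and DNA polymerase alpha-primase, 12 other telomere proteins) set the members beside the rest of the pathway. Not all of them are particular to telomeres: DNA polymerase alpha-primase also serves replication of the whole genome. It had 29 tested genes. TERC, the RNA template of telomerase, lacks a poly(A) tail and was listed at 0 to 0.961 FPKM in these poly(A)-selected libraries, too low to test. Between the genotypes 0 of 29 were called by limma with vehicle (1 at an unadjusted p under 0.05), beside 9.41% of all genes, and 1 with pyridostatin, beside 10.9% of all genes. That gene was SMG6, which kept its call in 11 of 20 alternatives. Over both treatments 1 of 29 was called (3.45%, beside 19.1% of all genes). It was again SMG6 (0.17, limma adjusted p = 0.0360), called in 7 of 19 alternatives. Of the 11 tested genes of the telomerase particle 0 were called with vehicle or with pyridostatin, with log2 fold changes of -0.10 to 0.14 and -0.21 to 0.07.

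With pyridostatin 1 of 29 was called in WT (3.45%, beside 4.17% of all genes) and 6 of 29 in PARP3-/- (20.7%, beside 5.56%), 5 of the 6 lower. By group, the calls in PARP3-/- were 0 of 11 for the telomerase particle, 3 of 6 for CST partners and polymerase alpha-primase, and 3 of 12 for other proteins. The median of the list was -0.05 and -0.08 on the log2 scale, beside 0.00 over all genes in both. At an unadjusted limma p under 0.05 the counts were nearer, 8 in WT and 11 in PARP3-/- (2410 and 2329 of all 11881 genes). For the interaction limma called 0 of 29, and 0% of all genes. PRIM1, the catalytic subunit of primase, was called in both genotypes: it went from 33.1, 31.5 and 33.5 FPKM to 26.1, 24.3 and 27.9 in WT (-0.32, limma adjusted p = 0.0168) and from 30.7, 31.8 and 31.1 to 26.2, 22.5 and 24.9 in PARP3-/- (-0.34, limma adjusted p = 0.00945). The WT call was lost without WT vehicle replicate 3 or WT pyridostatin replicate 1 and in the 6 libraries alone, with adjusted p up to 0.111. RTEL1, a helicase that dismantles telomeric loops and G4 DNA, had the largest change of the list. It went from 5.90, 5.69 and 6.04 FPKM to 3.88, 3.94 and 2.91 in PARP3-/- (-0.59, 95% interval -0.79 to -0.40, limma adjusted p = 0.00390, called in all 19 alternatives).

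In WT, RTEL1 was 4.86, 5.66 and 5.74 FPKM with vehicle and 4.27, 3.93 and 4.40 with pyridostatin, without overlap, and was uncalled (-0.30). The read-through transcript RTEL1-TNFRSF6B, which shares its exons, was 1.10 to 1.43 FPKM with vehicle and 0.00665 to 0.705 with pyridostatin in WT. In PARP3-/- it was 0.000142 to 1.05 FPKM with vehicle and 0.00188 to 0.867 with pyridostatin. Its mean was thus also lower with pyridostatin in WT (1.27 to 0.315) and in PARP3-/- (0.591 to 0.402). The split of reads between the pair is uncertain, and its part in the change of RTEL1 was not tested. The primase partners POLA1 (-0.24, limma adjusted p = 0.0330) and POLA2 (-0.18, adjusted p = 0.0249), subunits of DNA polymerase alpha, fell in PARP3-/-, as did FBXO4 (-0.25, adjusted p = 0.0474), an F-box protein that targets TERF1 for degradation. SMG6, a nuclease of nonsense-mediated decay that also associates with telomeres, rose in PARP3-/- with pyridostatin (0.30, adjusted p = 0.0335) and was higher there than in WT (0.27, adjusted p = 0.0334), from 9.30 to 10.1 FPKM in WT to 10.7 to 12.9. POLA1 and POLA2 lost the call on leaving out any 1 of the 6 PARP3-/- libraries, POLA1 also without WT pyridostatin replicate 1 (limma adjusted p up to 0.126 and 0.101). POLA1 also lost it with no filter. FBXO4 was called in 5 of 20 alternatives (adjusted p up to 0.167): among libraries left out it kept the call without WT vehicle replicate 1 or 2 or PARP3-/- pyridostatin replicate 1. It lost the call with the replicate block, no filter, quantile normalization, a common median, no trend and only the libraries compared. The rise of SMG6 was lost without WT vehicle replicate 3, any PARP3-/- vehicle library or PARP3-/- pyridostatin replicate 2 or 3 (up to 0.133). Its difference between genotypes was lost without PARP3-/- vehicle replicate 2 or replicate 2 or 3 of either pyridostatin group (up to 0.127) and with only the libraries compared. No filter, quantile normalization and a common median ended both calls of SMG6.

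Over both genotypes 10 of 29 were called with pyridostatin (34.5%, beside 13.9% of all genes), 9 lower and SMG6 higher. By group these were 2 of 11 for the telomerase particle, 4 of 6 for CST partners and polymerase alpha-primase, and 4 of 12 for other proteins. All 4 subunits of DNA polymerase alpha-primase fell: PRIM1 (-0.33), POLA1 (-0.17), POLA2 (-0.15) and PRIM2 (-0.13), each called in all 19 alternatives, with a largest limma adjusted p of 0.0447. RTEL1 (-0.45), FBXO4 (-0.20) and GAR1 (-0.24), a subunit of the telomerase particle, were also called in every alternative that could test them. RUVBL1 (-0.11), an ATPase of telomerase assembly, was called in 14 of 19 alternatives, DCLRE1B (-0.17), the nuclease that trims telomere ends, in 6 of 18 and SMG6 (0.20) in 14 of 19. RUVBL1 lost its call without PARP3-/- vehicle replicate 2 or 3, WT pyridostatin replicate 1 or 3 or PARP3-/- pyridostatin replicate 2 (limma adjusted p up to 0.0678). DCLRE1B lost it without any 1 library other than WT vehicle replicate 2 or PARP3-/- vehicle replicate 1 (up to 0.0886), and also with no filter and with the replicate block. SMG6 lost it with no filter and without PARP3-/- vehicle replicate 1 or 2, WT pyridostatin replicate 1 or PARP3-/- pyridostatin replicate 2 (up to 0.0593). No member and no gene of the list passed a log2 fold change of 1.

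**Figure D4:**
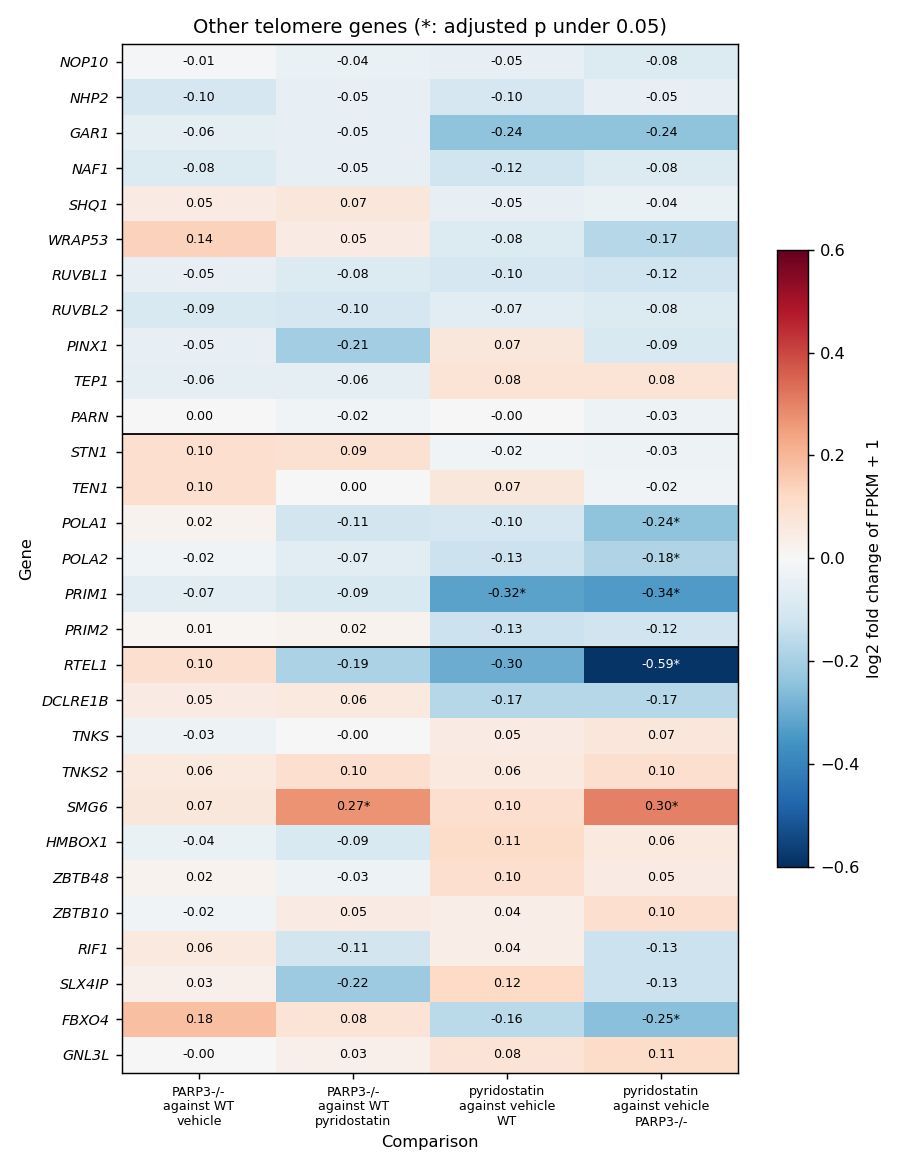
Log2 fold change of FPKM + 1 (colour and printed value, blue lower and red higher) of the 29 tested genes of the wider list (rows, with lines between telomerase particle, CST and primase, and other proteins) in 4 comparisons (columns), with an asterisk where the limma adjusted p was under 0.05. The pyridostatin columns hold the calls for PRIM1 (-0.32 and -0.34) and RTEL1 (-0.59), and the vehicle genotype column holds none.

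The genes whose pattern over the 12 libraries was most like that of TERF2, by Pearson's r of log2(FPKM + 1) among 11880 genes, were CRTC1 (0.954), DYRK1B (0.953) and UBQLN4 (0.952). All of them lay higher in the 6 pyridostatin libraries than in the 6 vehicle libraries, CRTC1 at 2.31 to 2.86 FPKM against 1.53 to 1.76. Those most like TERT were SERPINI1 (0.923), CD55 (0.919) and GTF2H2 (0.917). SERPINI1 was 3.03 to 4.21 FPKM in WT, and 1.05 to 1.84 where the label was PARP3-/-. The 12 points share the 4 groups, and the correlations are given as a description.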

How the data were processed

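RNA was from WT and PARP3-/- A549 cells with vehicle or 1 μM pyridostatin for 24 h, in 3 biological replicates. The authors made stranded poly(A) mRNA libraries with single-end reads and deposited 1 table of FPKM values, 1 column per library, without pooling replicates. The submitters' processing notes name STAR 2.5, bcl2fastq 2.16, Cufflinks, hg19 and mm9, with no role or order, and the annotation is not given in the sources used here. The authors tested counts with DESeq2, which were not used here.

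The 9 members and the lists were chosen with earlier results of these data known. The 11881 genes whose mean reached 1 FPKM were fitted on log2(FPKM + 1) with limma 3.58.1 in R 4.3.3 as 1 model of 4 groups with no block (eBayes with trend), adjusted by Benjamini-Hochberg and checked on simulated data. PARP3 was compared by an exact permutation test. From the wider list, genes called in a genotype or pyridostatin comparison and TERC were named. GAR1, RUVBL1, PRIM2 and DCLRE1B were named after their values were seen. Likeness was ranked for the 2 members with the smallest adjusted p. Depth was estimated from the steps of low FPKM values of 254 genes with GENCODE release 29 transcript lengths, so read numbers are approximate. Promoters and overlapping genes came from RefSeq on GRCh38.p14. Alternatives were a pseudocount of 0.1, no filter or a filter at 5 FPKM, a common median, quantile normalization, only the libraries compared, no trend, a replicate block and each library left out. Python 3.11.15 with pandas 2.3.3 and matplotlib 3.10.9 was used.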

Additional observations from a re-analysis of the deposited data

How the results depend on the processing

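Of the 9 members, TERF2 (pyridostatin) and TERT (genotype) over the mean of the other factor were called under every alternative that could test them, and no called value changed sign under any of the 20 alternatives. Among 1026 uncalled estimates 50 changed sign. Leaving out 1 library at a time gave 0 to 2 members called for genotype with vehicle (1 with all libraries), 0 to 3 with pyridostatin (0), 1 to 2 for pyridostatin in WT (1), 0 to 3 in PARP3-/- (1), 1 to 3 for genotype over both treatments (2) and 2 to 4 for pyridostatin over both genotypes (4), and 0 for the interaction. The higher counts came mostly without WT vehicle replicate 2. For the wider list the same ranges were 0 to 2 (0), 0 to 3 (1), 0 to 3 (1) and 2 to 9 (6). The difference in PARP3 stayed at 0.431 to 0.856 FPKM with vehicle and 0.685 to 0.934 with pyridostatin.

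With no filter, members called for genotype with pyridostatin were 2, for pyridostatin in PARP3-/- 0, and genes of the wider list called were 0 and 3. A mean of at least 5 FPKM, which removes TERT and CTC1, left 0 members for genotype with vehicle and 0 over both treatments. Quantile normalization, a common median, no trend and only the libraries compared each gave 1 member for genotype with pyridostatin, which was ACD with only the libraries compared and TERT otherwise. A common median gave 0 members for pyridostatin in PARP3-/- and 0 of the wider list for genotype with pyridostatin. Only the libraries compared gave 0 members for genotype with vehicle and 0 for pyridostatin in WT, and 0 of the wider list for genotype with pyridostatin and for pyridostatin in WT. No trend gave 1 member for genotype over both treatments. Apart from the removal of genes by the filter, the cause was not tested. No member was below the filter, so the exact test planned for such members was not run.

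Replicate numbers did not pair the samples: deviations of same-numbered libraries correlated at -0.12 to 0.216 over the genes tested, and not every pair was over 0.1. For genotype with vehicle every library correlated best with its own number (0.103, 0.091 and 0.0663), a hint from the data and not the design. In the other comparisons not every library did. With the replicate block, 1 member (TERT) was called for genotype over both treatments in place of 2, and 1, 0, 1, 1, 0 and 4 in the other comparisons. The block gave 0, 1, 1 and 5 genes of the wider list, the lost one being FBXO4. Counting precision is limited most for TERT, at 105 to 168 reads per library. The largest standard error of the fit among the members was that of ACD (0.0702 for genotype with vehicle, against 0.0663 for TERT).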
